A study of Rattus norvegicus with 39 samples.

Results

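Small RNA of rat sperm was compared between 2 neighbouring oral doses of the solvent ethylene glycol monomethyl ether (EGME), 60 against 50 mg/kg/d. The comparison used 19 of the 39 libraries of the study, 9 from males given 60 mg/kg/d (EGME60) and 10 from males given 50 mg/kg/d (EGME50), chosen by the dose prefix of the sample titles. No vehicle library entered the contrast, although the vehicle group (EGME0, n = 10) and the 75 mg/kg/d group (EGME75, n = 10) helped to estimate the spread and are given beside the values for orientation. All males were adult wild-type Fischer rats that received EGME in water by gavage on 5 days. Sperm was taken from the cauda epididymis after 5 further weeks without exposure, and the labels put the age of the males at 11 to 12 weeks. Each library held the sperm RNA of 1 male, so the 19 libraries were 19 animals.

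EGME is oxidised in the body to methoxyacetic acid, and its best known target in the testis is the spermatocyte. Mature sperm transcribe little, and their small RNA consists largely of tRNA and rRNA fragments, with smaller amounts of microRNA (miRNA) and piRNA. A miRNA finds its target messages mainly through its seed, bases 2 to 8 of the mature strand, while piRNAs silence transposons in the germ line. tRNA fragments arise by cleavage of mature tRNAs, many of them gained by sperm during passage through the epididymis.

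The mature sequences of the miRNAs that the results turn on are shown from RefSeq (build GRCr8), 5′ to 3′, with the seed in capitals. The first 3 had among the 4 smallest p-values of the dose step. The next 4 share 1 seed and belong to the miR-17-92 and miR-106b-25 clusters, and the last 2 are germ cell miRNAs.
miR-22-3p: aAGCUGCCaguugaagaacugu
miR-202-5p: uUCCUAUGcauauacuucu
miR-145-5p: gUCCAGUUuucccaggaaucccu
miR-17-5p: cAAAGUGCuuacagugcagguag
miR-20a-5p: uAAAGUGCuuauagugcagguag
miR-93-5p: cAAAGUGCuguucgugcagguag
miR-106b-5p: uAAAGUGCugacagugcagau
miR-34b-3p: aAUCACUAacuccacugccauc
miR-34c-5p: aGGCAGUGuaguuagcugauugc
In GRCr8, miR-22-3p lies on chromosome 10 from 60805387 to 60805408 on the plus strand, and miR-202-5p on chromosome 1 from 204184390 to 204184408 on the minus strand. A mature sequence was found for 96 of the 105 miRNAs tested.

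Counts came as 4 tables: miRNAs in their mature form, tRNA genes of the genome, noncoding transcripts of Ensembl (called the ncRNA table) and entries of the RNAcentral database. The same read may stand in more than 1 table. Summed over the tables, a library held 3326816 to 18244618 counts at EGME50 (median 9883280.5) and 6889547 to 24308152 at EGME60 (median 10470882). The miRNA table was thin, with 1681 to 33951 counts per library at EGME50 and 1990 to 37020 at EGME60. There were 2 pairs of libraries that stood apart. EGME60 replicates 22 and 38 had rRNA shares of 78.8% and 80.2% of their RNAcentral counts, against at most 66.1% in the other libraries of both doses, and EGME50 replicate 36 and EGME60 replicate 6 had fewer than 3000 miRNA counts. The calls are therefore also given without replicates 22 and 38, except for the differences between steps. Of the 13 sequencing chips, 3 carried libraries of both doses, and replicates 22 and 38 were the EGME60 members of 2 of those 3.

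The samples carried the miRNAs of germ cells. The 6 miRNAs of the miR-34b, miR-34c and miR-449 group made up 11.1% to 25.5% of the miRNA counts at EGME50 (median 21.5%) and 10.9% to 28.1% at EGME60 (median 15.3%), with none at 0. The defining striated muscle miRNAs miR-1-3p, miR-133b-3p and miR-206-3p had no count in the 19 libraries, and miR-133a-3p made up at most 0.0264% of miRNA counts in any of them. The muscle list as a whole, with miR-143-3p and miR-145-5p, summed to 0.932% to 4.58% of miRNA counts at EGME50 and 1.31% to 11.7% at EGME60. Blood cell miRNAs (6 in the table) summed to 0.119% to 1.24% (median 0.289%) and 0.0216% to 2.17% (median 0.837%), and the epithelial miR-200 family (5 of 5 detected) to 0.612% to 3.33% and 0.251% to 3.01%. The part that such other cells played in the results below was not tested. In such bulk samples fewer cells of a type and less RNA per cell cannot be told apart.

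The composition of the libraries differed between the doses. RNAcentral entries took 15.4% to 31.9% of the 4 tables at EGME50 (median 23.2%) and 24.7% to 60.6% at EGME60 (median 33.7%). All 9 EGME60 libraries lay above the EGME50 median and 5 lay above every EGME50 library. The mean share rose from 23.9% ± 4.94 (SD, n = 10) to 36.4% ± 12.2 (SD, n = 9), a difference of 12.5 percentage points (exact permutation test, two-sided, p = 0.00159, 0.0209 after Benjamini-Hochberg adjustment over 19 shares and depth measures). The vehicle mean was 22.8% and the EGME75 mean 39.95%. Without EGME60 replicates 22 and 38 the difference was 6.69 points (exact permutation test, adjusted p = 0.107), and within the 3 shared chips it was 45.2, 21.01 and -0.39 points. The call was also lost when any 1 of EGME50 replicates 3, 4, 12, 20, 27 and 35 was left out, with differences of 9.48 to 13.97 points over all such fits.

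The shares of the other tables, which sum to 100% with it, did not pass. tRNA genes held 66.4% ± 6.25 of the counts at EGME50 and 56.6% ± 11.1 at EGME60. That difference was -9.77 points (exact permutation test, adjusted p = 0.0716), and it passed without EGME50 replicate 36 or EGME60 replicate 5, at up to -11.6 points. Without EGME60 replicates 22 and 38 it was -5.36 points (exact permutation test, adjusted p = 0.344), and as a share of the tables without RNAcentral it was 2.28 points (exact permutation test, adjusted p = 0.571). The ncRNA share was 9.58% ± 2.83 and 6.90% ± 5.68 and the miRNA share 0.169% ± 0.0939 and 0.118% ± 0.0907 (exact permutation test, adjusted p = 0.350 for both). Without replicates 22 and 38 these differed by -1.30 and -0.0275 points (exact permutation test, adjusted p = 0.709 for both). Total depth, at 6.95 ± 0.24 and 7.08 ± 0.17 in log10 counts, did not pass either (exact permutation test, adjusted p = 0.350). A library held 177 ± 46.8 miRNAs at EGME50 and 172 ± 55.8 at EGME60.

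**Figure D1:**
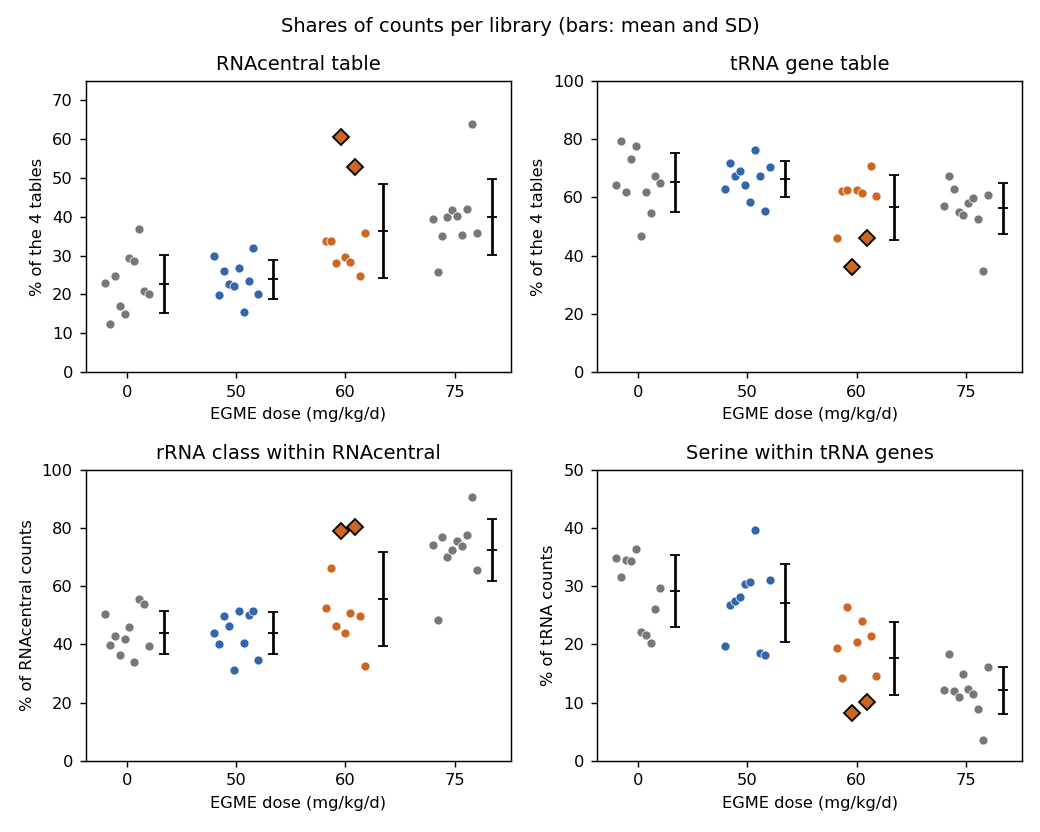
Shares of counts in every library at 0, 50, 60 and 75 mg/kg/d, in percent, for the RNAcentral table, the tRNA gene table, the rRNA class within RNAcentral and serine tRNAs within the tRNA table. Points are libraries, black diamonds edge EGME60 replicates 22 and 38, and bars give the mean and SD; the 9 EGME60 libraries lie at 24.7% to 60.6% for RNAcentral and 8.2% to 26.4% for serine.

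The 4 serine anticodons passed the test for a lower level at EGME60, but none of these calls held without EGME60 replicates 22 and 38 or with the chip as a fixed block. tRNAs carry amino acids to the ribosome, and each anticodon below sums all genomic genes with that anticodon, whose near-identical copies the counting may not separate. Of 47 anticodons tested, 6 passed the threshold of 0.05 on the adjusted p (12.8%), and 11 had an unadjusted p below 0.05 (23.4%). The 5 lower at EGME60 (10.6%) were SerCGA, SerTGA, SerAGA, SerGCT and LeuTAA, and the 1 higher (2.13%) was ThrAGT. All 4 serine anticodons tested were among the lower ones, with a median log2 fold change of -0.63, against -0.02 over all 47. Here and below a log2 fold change is EGME60 over EGME50 with its standard error (SE), and the test is edgeR's quasi-likelihood test with Benjamini-Hochberg adjustment within the table.

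SerGCT, the most abundant of the serine tRNAs here, ran from 129601 to 380198 scaled CPM at EGME50 (median 251023) and from 57845.5 to 222049 at EGME60 (median 165731). Scaled CPM are counts brought to the same fixed library total by the library's own total in its table and its TMM factor. Every EGME60 library lay below the EGME50 median, with replicates 22 and 38 lowest, and the groups overlapped. The log2 fold change was -0.76 (SE 0.25, edgeR adjusted p = 0.0341). SerCGA ran from 1503 to 3360 at EGME50 (median 2512) and from 852 to 2551 at EGME60 (median 1490). Here 8 of 9 EGME60 libraries were below the EGME50 median, and the change was -0.65 (SE 0.17, edgeR adjusted p = 0.0244).

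SerAGA went from a median of 26214.5 (18374.5 to 33046) to 17722 (10716 to 25673). It fell by 0.62 on the log2 scale (SE 0.19, edgeR adjusted p = 0.0273). SerTGA went from a median of 19489 (12913 to 24144) to 12794 (7711 to 17137). It fell by 0.60 (SE 0.18, edgeR adjusted p = 0.0273). For both anticodons all 9 EGME60 libraries lay below the EGME50 median, within overlapping ranges.

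LeuTAA was the only leucine anticodon past the threshold. Its level ran from 3274 to 6345 at EGME50 (median 4208) and from 1028 to 3858 at EGME60 (median 2337), with all 9 EGME60 libraries below the EGME50 median and the ranges overlapping. The log2 fold change was -0.82 (SE 0.24, edgeR adjusted p = 0.0273). LeuCAA, at -0.67 (SE 0.25), and LeuAAG, at 0.62 (SE 0.27), had edgeR adjusted p = 0.0649 and 0.119, and the median of the 5 leucine anticodons was 0.04.

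ThrAGT, a low-count threonine tRNA, ran from 57.1 to 165 scaled CPM at EGME50 (median 100.1) and from 52.1 to 465 at EGME60 (median 187). Replicates 22 and 38 were the highest EGME60 libraries, 7 of 9 lay above the EGME50 median, and 2 lay below it. The log2 fold change was 0.87 (SE 0.29, edgeR adjusted p = 0.0341). The other two threonine anticodons had values near 0, and the median of the 3 was 0.01.

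**Figure D2:**
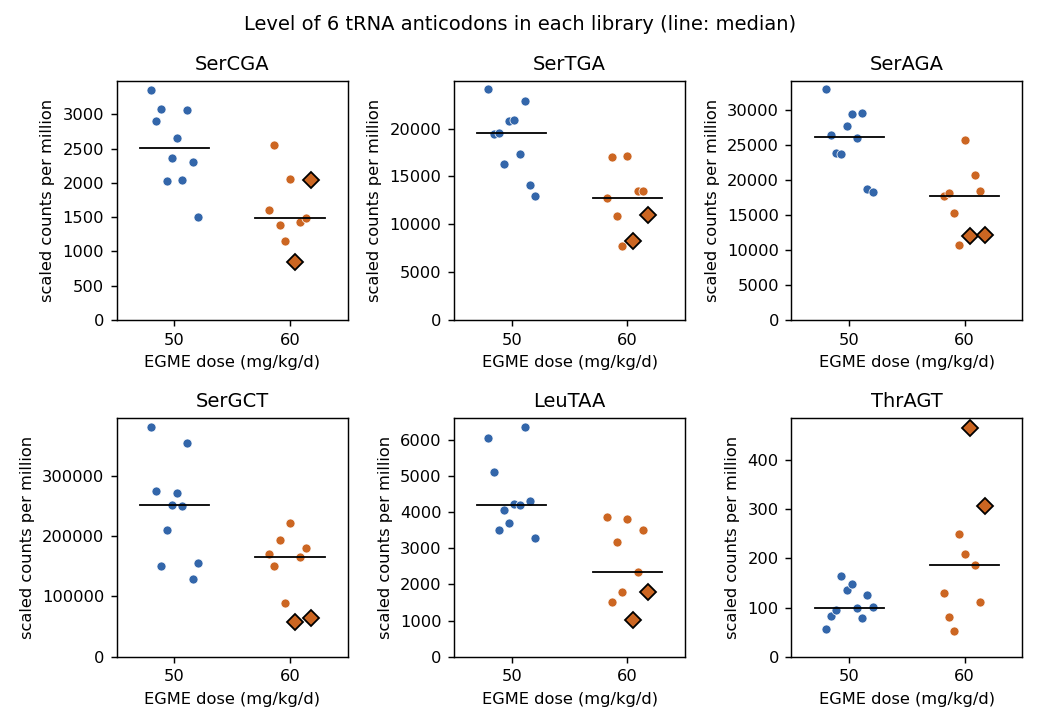
Level of the 6 anticodons that passed the threshold, in scaled CPM on a linear axis, in each of the 10 EGME50 and 9 EGME60 libraries. Lines are medians and black-edged diamonds are EGME60 replicates 22 and 38; the groups overlap for every anticodon, and all EGME60 points lie below the EGME50 median for SerTGA, SerAGA, SerGCT and LeuTAA.

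Few libraries decided whether the calls passed. The median log2 fold change of the 5 lower anticodons was -0.65 with all libraries and -0.62 without replicates 22 and 38. These 5 were picked in a fit that held the remaining libraries too, so their values are no independent support. Without replicates 22 and 38 none of the 47 anticodons passed (6 at an unadjusted p below 0.05): SerCGA was at -0.66 (edgeR adjusted p = 0.071), SerGCT at -0.62 (0.241), LeuTAA at -0.72 (0.161) and ThrAGT at 0.36 (0.656). With the chip as a fixed block none passed either, with SerCGA at -0.78 and SerGCT at -0.95, larger than without the block. On the shared chips of replicates 22 and 38 the serine share of tRNA counts differed by -31.5 and -8.21 points. On the remaining shared chip it differed by 0.68 points. Leaving out 1 library at a time gave 0 to 10 calls: 0 without EGME50 replicate 3, EGME60 replicate 14 or EGME60 replicate 22, 1 without EGME60 replicate 38, and 10 without EGME50 replicate 36 or EGME60 replicate 30.

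At the level of single tRNA genes none of 338 passed (0%) with edgeR, 87 had an unadjusted p below 0.05 (25.7%), and DESeq2 called 34. Single libraries decided this count, which was 49 without EGME50 replicate 36 and 43, 35, 33 and 5 without EGME60 replicates 30, 21, 13 and 6. All 22 serine genes tested had negative log2 fold changes, from -0.77 to -0.04 with a median of -0.68, and 18 of the 22 had an unadjusted p below 0.05. Their smallest adjusted p was 0.0639. The median over all 338 genes was 0.05. Many genes had identical counts (189 distinct patterns among the 338), so these genes are no independent measurements. Of the 15 aspartate genes, with 3 distinct patterns, 14 had positive values with an unadjusted p below 0.05 and a median of 0.49. The 13 LysCTT genes, with 5 patterns, all had positive values with a median of 0.68, and the 8 TyrGTA genes had a median of 0.75.

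**Figure D3:**
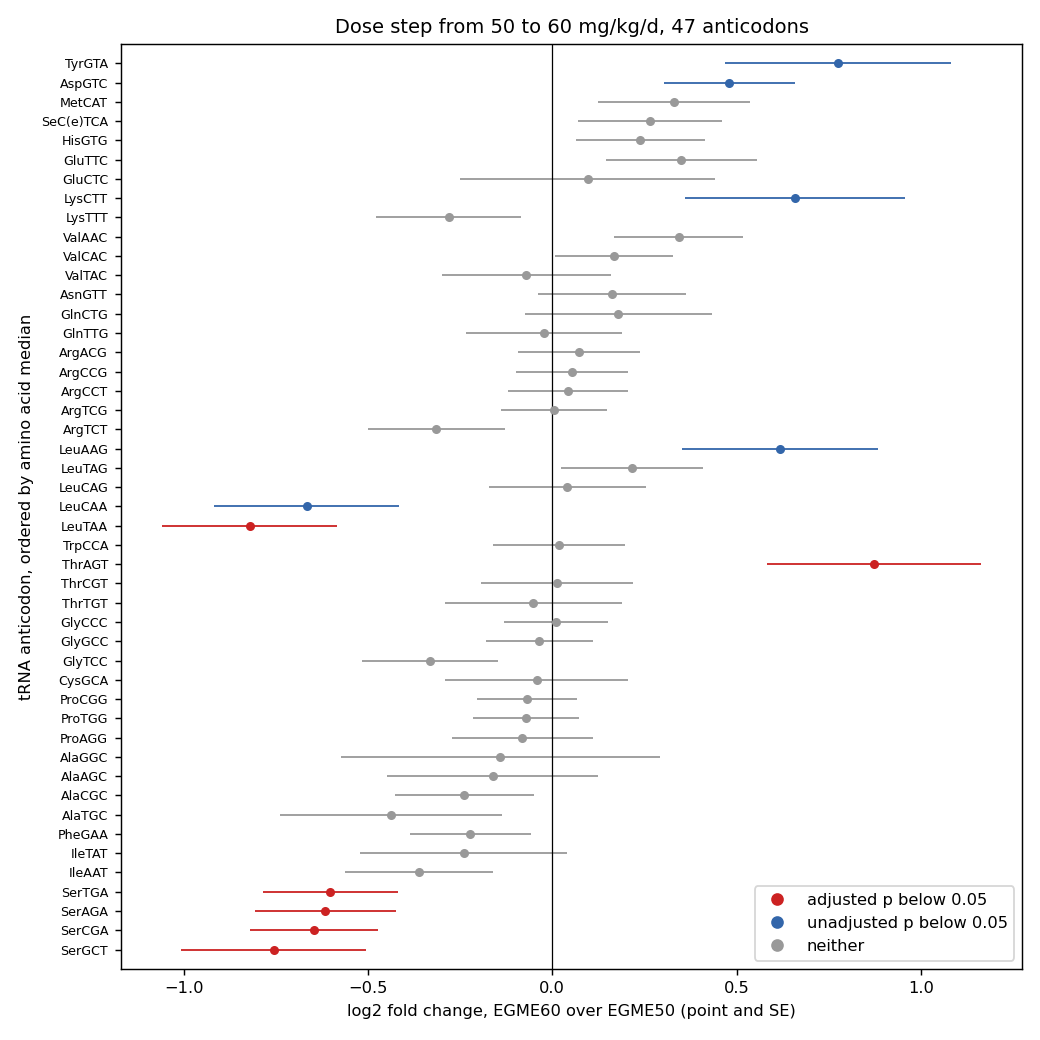
Log2 fold change of EGME60 over EGME50 with its SE for 47 anticodons, ordered by the median of their amino acid. The 4 serine anticodons lie between -0.76 and -0.60, LeuTAA is lowest at -0.82, and the 6 red points passed the adjusted threshold.

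As a share of all tRNA counts, serine took 18.2% to 39.7% at EGME50 (median 27.8%) and 8.20% to 26.4% at EGME60 (median 19.3%). All 9 EGME60 libraries lay below the EGME50 median and 4 lay below every EGME50 library. The means were 27.1% ± 6.75 and 17.6% ± 6.22, a difference of -9.48 points (exact permutation test, p = 0.00573, adjusted p = 0.0601 over 21 amino acids, a family added after the values were seen). Aspartate, at 1.63% ± 0.371 and 2.43% ± 0.721, passed in that family (exact permutation test, p = 0.00158, adjusted p = 0.0332), with 8 of 9 EGME60 libraries above the EGME50 median. Without replicates 22 and 38 the difference was 0.46 points for aspartate (exact permutation test, adjusted p = 0.242) and -7.06 points for serine (exact permutation test, adjusted p = 0.307). Methionine had means of 8.08% and 10.7% (exact permutation test, adjusted p = 0.257), with 9 of 9 EGME60 libraries above the EGME50 median.

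No anticodon known for abundant 5′ fragments in sperm passed by itself. Summed, the 8 on this list took 28.5% to 44.6% of tRNA counts at EGME50 (median 36.1%). At EGME60 they took 36.1% to 44.9% (median 42.7%), and this sum was not tested. GlyGCC, the anticodon with the largest mean share over the 19 libraries, had a median of 235832 scaled CPM at EGME50 (207659 to 412079) and 236517 at EGME60 (197068 to 372128). The groups lay on top of each other, and the log2 fold change was -0.04 (SE 0.15). Of the 8 anticodons on this list 0 passed, 7 had positive values, and the median was 0.20. GluTTC stood at 0.35 (SE 0.20), ValAAC at 0.34 (SE 0.17) and LysCTT at 0.66 (SE 0.30, edgeR adjusted p = 0.139).

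The serine values at the neighbouring steps are given beside these; the 3 steps share the EGME50 or EGME60 libraries, so they are not independent. From 0 to 50 mg/kg/d the median log2 fold change of the 4 serine anticodons was -0.01, and from 60 to 75 mg/kg/d it was -0.61. The difference between steps was itself tested in the same model. No anticodon and no tRNA gene passed for the 50 to 60 step against the 0 to 50 step (2 anticodons and 15 genes at an unadjusted p below 0.05) or against the 60 to 75 step (3 and 35).

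No miRNA passed for the dose step. Of 105 miRNAs tested with edgeR 0 passed (0%), 14 had an unadjusted p below 0.05 (13.3%), 10 of them higher at EGME60, and the median log2 fold change was 0.06. DESeq2 called 3 and limma-voom with the chip as a random block called 0. Leaving out 1 library gave 0 to 5 calls, with 1 or more only without EGME50 replicates 4, 19 or 35 or EGME60 replicates 5, 6, 13 or 30.

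miR-22-3p, a widely expressed miRNA, came closest. It ran from 847 to 5581 scaled CPM at EGME50 (median 2383) and from 0 to 21277 at EGME60 (median 7280). In EGME60, 8 of 9 libraries lay above the EGME50 median, and replicate 6, with 1990 miRNA counts in all, had none. The log2 fold change was 1.71 (SE 0.47, edgeR adjusted p = 0.0555). The steps on either side had log2 fold changes of 0.15 and -0.06. Under the other settings run the adjusted p ranged on both sides of the threshold: 0.0351 with RLE factors and 0.0102 with DESeq2, but 0.304 without replicates 22 and 38 and 0.193 with the chip block. Scaled by the total of the 4 tables, the log2 fold change of miR-22-3p was 0.98 (edgeR adjusted p = 0.833).

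miR-202-5p, a miRNA of the gonads expressed in Sertoli cells, had no count in 6 of 10 EGME50 libraries and at most 1503 scaled CPM there. At EGME60 it ran from 0 to 16428 (median 597), the highest library being replicate 5. The log2 fold change of 3.05 (SE 0.95) had an edgeR adjusted p of 0.118, with 3.42 and 0.0900 without replicates 22 and 38. Those replicates stood at 0 and 300 scaled CPM. With edgeR miR-202-5p passed under RLE factors (adjusted p = 0.0352) and with log10 total as covariate (adjusted p = 0.0343). It did not pass with no filter (edgeR adjusted p = 0.150), the chip block (0.475) or the total of the 4 tables (0.833). miR-99a-5p, of the miR-99/100 family, ran from 1886 to 8918 at EGME50 (median 4439) and from 4672 to 18518 at EGME60 (median 9988). All 9 EGME60 libraries lay above the EGME50 median, the ranges overlapped, and the value of 0.97 (SE 0.32) had an edgeR adjusted p of 0.118. It passed with DESeq2 (adjusted p = 0.0102) and with edgeR under RLE factors (adjusted p = 0.0352), and without replicates 22 and 38 it was 0.71 (edgeR adjusted p = 0.667). Scaled by the total of the 4 tables, miR-99a-5p stood at 0.26 (edgeR adjusted p = 0.897).

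miR-145-5p, typical of smooth muscle, had medians of 25539 and 33517 scaled CPM and a highest EGME60 value of 117275, in replicate 29. Its log2 fold change was 0.96 (SE 0.33, edgeR adjusted p = 0.118), and its partner miR-143-3p stood at 0.57 (SE 0.50). miR-10a-5p, from a Hox cluster, stood at 0.88 (SE 0.33) and miR-148a-3p at 1.73 (SE 0.64), both with an edgeR adjusted p of 0.158. These 2 lie outside the naming rule given below and were picked from the 14 miRNAs with an unadjusted p below 0.05. The erythroid miR-451-5p stood at 1.31 (SE 0.63, edgeR adjusted p = 0.338).

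Germ cell miRNAs had no member past the threshold, and their values were all negative, against 51 negative of the 105 miRNAs tested. The 5 tested members ranged from -0.58 to -0.11 with a median of -0.45. miR-34b-3p ran from 42751 to 196797 scaled CPM at EGME50 (median 104502) and from 32039 to 202074 at EGME60 (median 75700). These ranges overlapped almost wholly, with a log2 fold change of -0.11 (SE 0.33). miR-34c-5p, which sperm deliver to the egg, stood at -0.45 (SE 0.34), miR-34c-3p at -0.58 (SE 0.37) and miR-449a-5p, with the same seed as miR-34c-5p, at -0.49 (SE 0.33). Of the 4 tested miRNAs with that seed, 3 were negative and 1, miR-34a-5p, was positive at 0.72. From 0 to 50 mg/kg/d the median of this list was -0.57, and from 60 to 75 mg/kg/d -0.18.

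The testis-restricted miRNAs of the X-linked miR-743 and miR-463 cluster had values around 0. Of 16 tested, 7 were positive and 9 negative, from -0.85 to 0.67, with a median of -0.10 and none past the threshold. miR-741-3p, among the most abundant of them, had medians of 20352 and 18524 scaled CPM and a log2 fold change of -0.25 (SE 0.31).

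In the miR-17-92 and miR-106b-25 clusters, which promote cell proliferation, 9 of 10 tested miRNAs had negative values, with a median of -0.48 and none past the threshold. The 4 with the seed AAAGUGC were all negative, with a median of -0.64. miR-17-5p ran from 0 to 11108 scaled CPM at EGME50 (median 4826) and from 505 to 5096 at EGME60 (median 2113). In EGME60, 8 of 9 libraries lay below the EGME50 median, and the log2 fold change was -1.16 (SE 0.47, edgeR adjusted p = 0.185). miR-20a-5p stood at -0.73 (SE 0.36, edgeR adjusted p = 0.338), miR-93-5p at -0.55 (SE 0.37) and miR-25-3p, the exception, at 0.15 (SE 0.42). miR-16-5p, an abundant miRNA with another seed that restrains the cell cycle, had medians of 103898 and 56919 and a log2 fold change of -0.83 (SE 0.32, edgeR adjusted p = 0.158). Of the 3 tested miRNAs with its seed, AGCAGCA, 2 were positive and 1 negative, with a median of 0.16.

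The let-7 family, which shares the seed GAGGUAG, was centred on 0: the 8 tested members ranged from -0.32 to 0.16 with a median of 0.02. Of 4 tested testis toxicity miRNAs 2 were positive and 2 negative (median 0.37), with miR-320-3p at 0.96 (SE 0.55). The 4 tested miR-200 family members, which keep cells epithelial, had a median of 0.31, from -0.27 for miR-200c-3p to 0.78 for miR-429. Their step from 0 to 50 mg/kg/d had a median of 1.12. The 2 muscle and 3 blood cell miRNAs tested were all positive, with medians of 0.77 and 0.70. Over the 8 lists 0 members passed, as in the table as a whole.

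**Figure D4:**
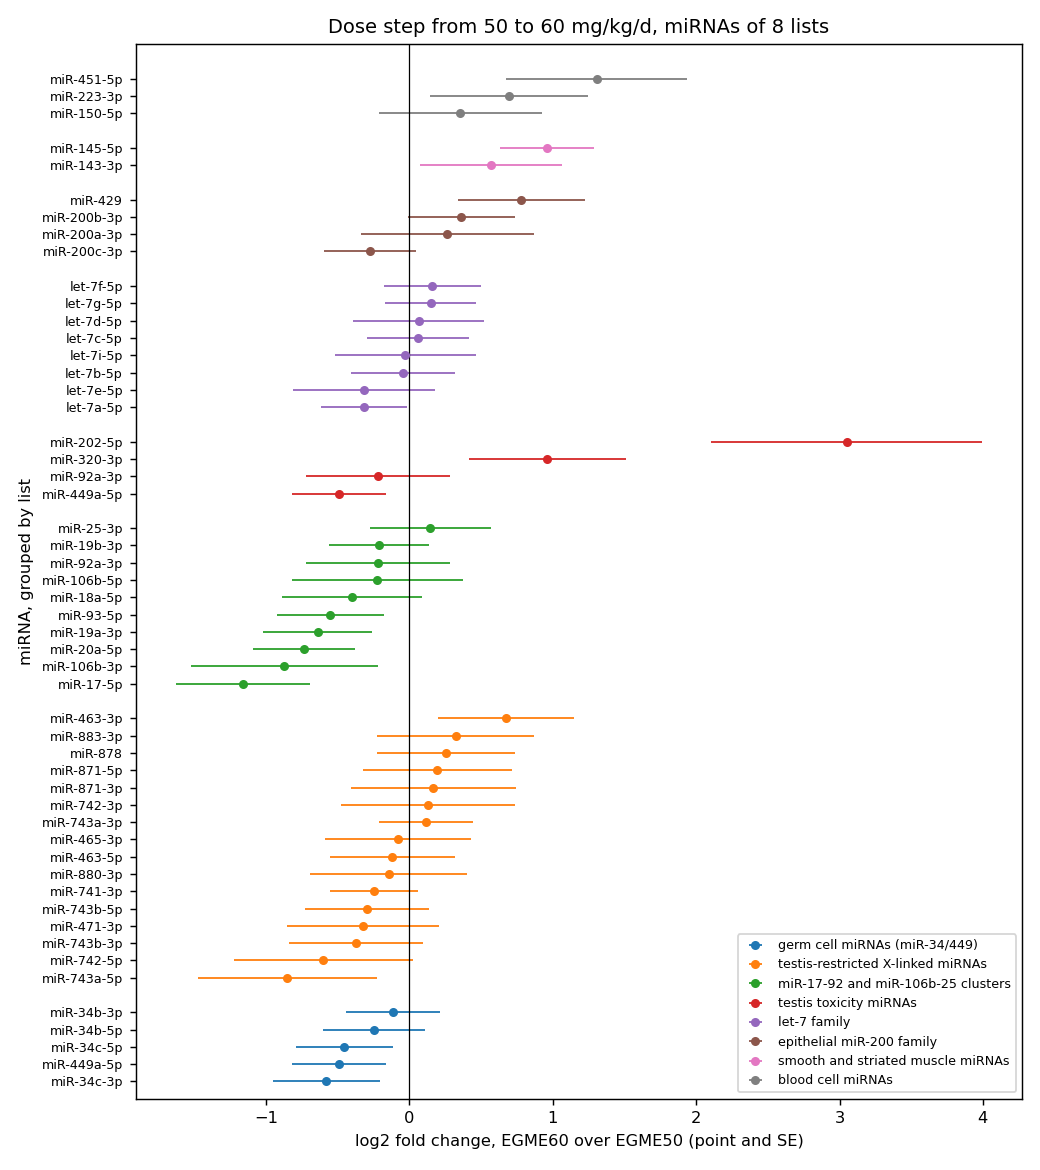
Log2 fold change of EGME60 over EGME50 with its SE for the tested miRNAs of 8 lists, coloured by list. No member passed the adjusted threshold; the 5 germ cell miRNAs lie between -0.58 and -0.11 and the let-7 family between -0.32 and 0.16.

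RNAcentral entries gave the largest number of calls. Of 2757 tested, 424 passed with edgeR (15.4%), 420 higher at EGME60 (15.2%) and 4 lower (0.145%), and 562 had an unadjusted p below 0.05 (20.4%), while the median over all entries was -0.11. Entries of the rRNA class, fragments of the RNA of the ribosome, made up 165 of the 420: of 235 rRNA entries tested 165 rose, 0 fell, and their median log2 fold change was 2.23. Long noncoding RNA (lncRNA) entries contributed 105 higher and 1 lower of 440 (median 0.41). piRNA entries contributed 93 higher and 3 lower of 1401, but 1032 of the 1401 had negative values and their median was -0.28. Of 18 entries for the signal recognition particle RNA, which guides ribosomes to the endoplasmic reticulum, 6 rose (median 1.15), and both entries for an RNase RNA rose, with identical counts. The median level of the 18 was 642 scaled CPM in EGME60 replicate 6, against a median of 64.8 over the EGME60 libraries and 55.8 over those of EGME50. As a share of RNAcentral counts that class had means of 0.259% and 0.269% (exact permutation test, adjusted p = 0.921), with 7 of 9 EGME60 libraries below the EGME50 median. RNAcentral entries overlap in sequence, so one fragment can be listed under several classes and several entries.

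The median level of the 235 rRNA entries was 24.95 to 123 scaled CPM over the EGME50 libraries (median 48.6) and 21.1 to 392 over the EGME60 libraries (median 71.4). Replicates 22, 14 and 38 of EGME60, at 392, 178 and 169, lay above every EGME50 library, and the other 6 lay within the EGME50 range or below it. The median level of the 1401 piRNA entries was 1.06 to 5.03 at EGME50 and 0 to 5.81 at EGME60. As a share of RNAcentral counts the rRNA class had means of 43.96% ± 7.16 and 55.6% ± 16.1, a difference of 11.7 points that did not pass (exact permutation test, p = 0.0534, adjusted p = 0.127). Without replicates 22 and 38 it was 4.85 points (exact permutation test, adjusted p = 0.629). The vehicle mean was 44.0% and the EGME75 mean 72.5%.

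**Figure D5:**
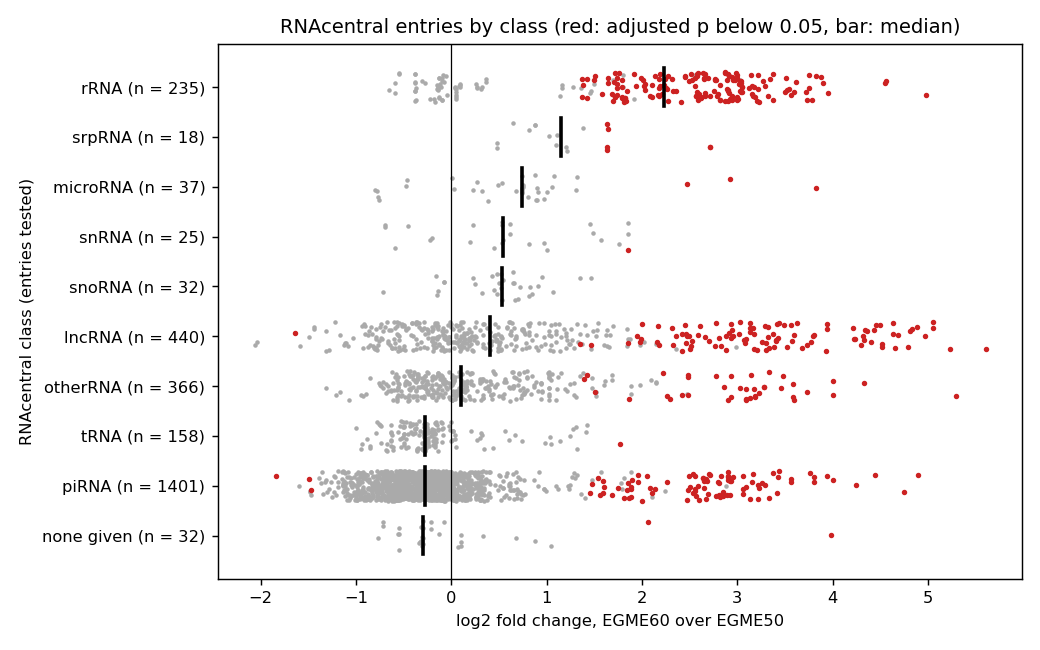
Log2 fold change of EGME60 over EGME50 of all tested RNAcentral entries in classes with at least 15 entries. Each point is an entry, red points passed the adjusted threshold and bars are class medians; rRNA entries have a median of 2.23 and piRNA entries one of -0.28.

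The highest named entries were seen mainly in a few EGME60 libraries. URS0000B2E69D, an lncRNA entry, had 7 counts in 3 of the 10 EGME50 libraries and 307 counts in 8 of the 9 EGME60 libraries, with 159 in the highest. Its fitted log2 fold change was 5.61 (SE 0.99, edgeR adjusted p = 0.00113), against a median of 0 counts at EGME50 and 7 at EGME60. URS0000CCF043, of the class otherRNA, had 10 counts in 3 EGME50 libraries and 331 in 6 EGME60 libraries, with a fitted log2 fold change of 5.29 (SE 1.07, edgeR adjusted p = 0.00146). In the other direction, piR-rno-44844 had 261 counts at EGME50 (median 24) and 77 at EGME60 (median 4), a log2 fold change of -1.83 (SE 0.64, edgeR adjusted p = 0.0416). URS0000B2387C had 238 counts (median 18) and 88 (median 8), a log2 fold change of -1.64 (SE 0.58, edgeR adjusted p = 0.044). The groups overlapped for each of these entries, as for every feature tested in the 4 tables.

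Of the 420 entries that rose, 257 were highest in replicate 22 and 133 in replicate 38 among the EGME60 libraries. Without those 2 libraries 0 of 3153 entries passed (305 at an unadjusted p below 0.05). The median of the 420 moved from 2.87 to 1.41, and all 420 kept a positive value. These entries were picked as higher in a fit that held the remaining libraries too, so their sign is no independent support. The rRNA class median relative to all entries was 2.34 with all libraries and 0.91 without them. Leaving out replicate 22 alone gave 242 calls. With the chip as a fixed block 8 entries passed, and with scaling by library totals alone 0 passed (374 at an unadjusted p below 0.05) and the rRNA class median relative to all entries was 1.35.

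In the ncRNA table, where 2 mitochondrial rRNA rows held nearly all counts, 21 of 174 transcripts passed with edgeR (12.1%), 3 higher (1.72%) and 18 lower (10.3%), and 54 had an unadjusted p below 0.05 (31%). All 18 lower ones were small nuclear RNAs (snRNA), the RNAs of the spliceosome, out of 48 snRNA transcripts tested with a median of -0.50; the 18 had only 7 distinct count patterns. ENSRNOT00000088058, an snRNA transcript with the same counts as another, ran from 19.3 to 61.7 scaled CPM at EGME50 (median 29.9) and from 3.34 to 33.5 at EGME60 (median 15.7), and 8 of 9 EGME60 libraries were below the EGME50 median. Its log2 fold change was -1.10 (SE 0.37, edgeR adjusted p = 0.0478), and ENSRNOT00000087996, almost identical in counts, had the same value. The direction depended on the scaling. Library totals moved the median of all 174 transcripts from 0.26 (TMM) to 2.54, and RLE factors moved it to 0.77. Under library totals 36 snRNA transcripts were called higher and 0 lower, and under RLE factors none was called. Relative to the median of all transcripts the snRNA class stood at -0.75 (TMM), -0.53 (RLE factors) and -0.86 (library totals). The 21 calls of all classes, 3 higher and 18 lower, became 26 and 0 under RLE factors and 153 and 2 under library totals. Of the 19 fits that left out 1 library, those without EGME50 replicates 4, 11, 20, 28 or 35 or EGME60 replicates 14, 22, 29, 30 or 38 gave 0 or 1 call, and the one without EGME50 replicate 36 gave 13.

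The 3 transcripts called higher were 2 long intergenic RNAs (lincRNA) and 1 miRNA precursor. ENSRNOT00000091643, a lincRNA, had 0 counts in the 10 vehicle libraries, 4 counts in 2 EGME50 libraries and 210 counts in 6 of 9 EGME60 libraries, up to 150 in the highest. The fitted log2 fold change was 3.41 (SE 0.83, edgeR adjusted p = 0.0349). Ensembl rRNA transcripts had a median of 0.52 over 48 tested, with 46 positive and 0 past the threshold.

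As shares of the ncRNA table, 4 classes passed. Shares of the same table are not independent, because a rise in some classes lowers the share of the rest. Mitochondrial rRNA fell from 98.98% ± 0.53 of ncRNA counts to 93.6% ± 8.10, with a lowest EGME60 library of 75.6% (exact permutation test, adjusted p = 0.0252). The rRNA class, without mitochondrial rRNA, rose from 0.0719% ± 0.0463 to 0.648% ± 0.905 (exact permutation test, adjusted p = 0.0209), with 7 of 9 EGME60 libraries above the EGME50 median. lincRNA rose from 0.0676% ± 0.0470 to 1.01% ± 1.83 and processed transcripts from 0.0454% ± 0.0319 to 0.258% ± 0.269 (exact permutation test, adjusted p = 0.0252 for both). The largest rise in points, 3.37, was in misc_RNA, from 0.734% ± 0.428 to 4.10% ± 5.66. It did not pass (exact permutation test, adjusted p = 0.0509). The snRNA share, unlike the snRNA transcripts called lower above, was higher at EGME60, at 0.0896% ± 0.0774 and 0.284% ± 0.350. It did not pass either (exact permutation test, adjusted p = 0.154). Replicates 22 and 38 were the EGME60 libraries with the highest rRNA, lincRNA and processed transcript shares, and replicate 38 had the lowest share of mitochondrial rRNA. Without them no class passed (exact permutation test, adjusted p = 0.107 for rRNA and 0.121 for the other 3 that had passed). The differences were then -1.75 points for mitochondrial rRNA, 0.159 for rRNA, 0.169 for lincRNA and 0.0924 for processed transcripts. For misc_RNA the difference was 1.26 points and for snRNA 0.0404 points. On a log2 ratio to the other classes the 4 calls were also lost (exact permutation test, adjusted p = 0.0836, and 0.101 for lincRNA). Of 19 fits that each left out 1 library the call held in 7 for lincRNA and mitochondrial rRNA, 8 for processed transcripts and 11 for rRNA. Without replicates 22 and 38, 0 of 178 transcripts passed with edgeR (56 at an unadjusted p below 0.05).

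The 50 to 60 step passed the test of a difference from the next step in 5 features, each with a highest EGME60 library far above the group median. Of the 174 in the ncRNA table, a pair of processed transcripts passed the test of that difference (2, or 1.15%), ENSRNOT00000089775 and ENSRNOT00000077967, both of 1 Ensembl gene. ENSRNOT00000089775 had a log2 fold change of 2.24 from 50 to 60 mg/kg/d and -4.20 from 60 to 75, a difference of 6.44 (SE 1.34, edgeR adjusted p = 0.00195). Its highest EGME60 library, at 1919 scaled CPM, stood against a group median of 24.2. That EGME60 median was below the EGME50 median of 34.4, as were 5 of 9 EGME60 libraries. In RNAcentral 3 of 2757 passed (0.109%): the signal recognition particle entries URS00009A0726 and URS0000A81DB6, with identical counts, and URS0000CCE916, of class otherRNA. The signal recognition particle entries had log2 fold changes of 2.72 and -2.24 over the 2 steps, a difference of 4.96 (SE 1.06, edgeR adjusted p = 0.0216). Their highest EGME60 library, at 725 scaled CPM, stood against a group median of 25.5, and 5 of 9 EGME60 libraries lay above the EGME50 median. For URS0000CCE916 the highest EGME60 library was at 1425 scaled CPM and the group median at 7.92. These differences were not tested without single libraries. No feature of any table passed the test of a difference between the 50 to 60 step and the 0 to 50 step (edgeR, 3 miRNAs, 35 ncRNA transcripts and 103 RNAcentral entries at an unadjusted p below 0.05).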

How the data were processed

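Small RNA libraries of rat sperm were made from 10 ng of RNA with the Ion total RNA-seq kit after mirVana isolation and DNase treatment, per the labels. The authors deposited 4 tables of raw counts of reads in sense orientation, as the tables' names and values show. The submitters' processing notes list Bowtie, FastQC and DESeq2, with no role given. How reads that fit several features were counted is not given in the sources used here. Deposited columns without a sample numbered 0.

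Counts were tested with edgeR 4.0.16 (R 4.3.3, limma 3.58.1): TMM scaling within each table, filterByExpr by group, robust quasi-likelihood fits over all 39 libraries, and the contrast EGME60 minus EGME50, with Benjamini-Hochberg adjustment within a table. The procedure was tested on simulated data. tRNA genes were summed into 49 anticodons. Shares were compared by exact two-sided permutation tests (92378 regroupings of 9 and 10 libraries).

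The naming rule took, from the features that passed and averaged 10 or more counts over the 19 libraries, the 6 highest and 6 lowest (2 and 2 for IDs without names), or the 3 smallest p where none passed. The 5 miRNAs and 5 anticodons of largest share and members of 9 lists (8 of miRNAs, 1 of anticodons) could also be named. The comparison, the lists and the members were chosen with earlier results of these data known, so patterns in the lists are no independent support.

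Alternatives were RLE factors, library totals, the total of the 4 tables, no filter, DESeq2 1.42.0, the 19 libraries alone, chip as a fixed block or a random block (limma-voom), log10 total as covariate, and leaving out each library. Leaving out EGME60 replicates 22 and 38, or the 2 libraries under 3000 miRNA counts, was chosen after seeing the data, as were the amino acid shares.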

Additional observations from a re-analysis of the deposited data

Results flagged for a closer look

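Within each dose, the highest and lowest library of 94 sets of values were set against the rest by Dixon's test, which chance passes in about 1 of 20 groups, and 13 passed. Replicate 6 of EGME60, with 1990 miRNA counts, gave 4 of them: miR-22-3p at 0 in log2(CPM + 1) (the others 11.85 to 14.38), miR-191a-5p at 19.23 (the others 15.32 to 16.33), the GluTTC anticodon at 17.03 (the others 15.07 to 15.72), and signal recognition particle RNA at 0.674% of RNAcentral counts (the others 0.143% to 0.341%). Replicate 36 of EGME50, the other library under 3000 miRNA counts, gave 2: miR-19b-3p at 12.90 in log2(CPM + 1) (the others 15.34 to 16.64) and the class otherRNA at 13.8% of RNAcentral counts (the others 2.41% to 4.84%).

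EGME60 replicate 38 stood apart in misc_RNA, at 17.4% of ncRNA counts (the others 0.394% to 8.23%), and in snRNA, at 1.11% (the others 0.0159% to 0.538%). EGME60 replicate 22 stood apart in lincRNA, at 5.65% of ncRNA counts (the others 0.00672% to 1.825%). EGME60 replicate 13 had an ncRNA share of 19.9% of the 4 tables (the others 0.943% to 9.71%), and without it the difference of that share from EGME50 passed, at -4.30 points. In EGME50, replicate 4 had 10.6% of RNAcentral counts in piRNA (the others 1.13% to 6.10%), replicate 28 had GlyGCC at 18.65 in log2(CPM + 1) (the others 17.66 to 18.13), and replicate 12 had the lncRNA entry URS0000B2E69D at 1.34 (the others 0 to 0.64).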

How the results depend on the processing

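Counts of calls moved with the processing, and the causes were not tested. No paired analysis was possible because each replicate number occurred once, for 1 male in 1 dose group. In the miRNA table (0 calls) RLE factors gave 4, DESeq2 3, log10 total as covariate 2, and library totals, no filter, the 19 libraries alone and leaving out the 2 libraries under 3000 miRNA counts 1 each. For tRNA genes (0 calls) DESeq2 gave 34, log10 total as covariate 33, and leaving out the 2 libraries under 3000 miRNA counts 6. The 6 anticodon calls became 0 with the total of the 4 tables, no filter, chip as a fixed block or without EGME60 replicates 22 and 38, 3 with the 19 libraries alone and 11 without the 2 libraries under 3000 miRNA counts. The 21 ncRNA calls became 155 with library totals, 55 with the total of the 4 tables, 38 with no filter, 32 with DESeq2 and 0 with the 19 libraries alone or without replicates 22 and 38. With library totals ENSRNOT00000088058 and ENSRNOT00000087996 turned from lower to higher, at 0.70 and 0.71, neither past the threshold. The 424 RNAcentral calls became 956 with no filter, 254 with the 19 libraries alone, 174 with limma-voom, 127 with log10 total as covariate, 8 with chip as a fixed block, and 0 with library totals or without replicates 22 and 38. The RNAcentral share differed by 6.69 points without those 2 libraries.

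Leaving out 1 library at a time gave 0 to 5 miRNA, 0 to 49 tRNA gene, 0 to 10 anticodon, 0 to 28 ncRNA and 242 to 487 RNAcentral calls. The share differences ran from 9.48 to 13.97 points for RNAcentral, from -11.6 to -7.22 for tRNA genes, from -4.30 to -1.94 for the ncRNA table (past the threshold without EGME60 replicate 13), and from 8.61 to 14.5 for rRNA within RNAcentral (past it without EGME60 replicate 6). The miRNA table, at 1681 to 37020 counts per library, limits what could be detected there.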
